A study of Homo sapiens with 15 samples.

Results

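The genes described here are 10 that cells use against oxidative stress and ferroptosis: NFE2L2, KEAP1, NQO1, HMOX1, SLC7A11, GCLC, GCLM, TXNRD1, SRXN1 and GPX4. They were found by their gene names, and each name matched a single gene among the 60107 in the files. All 10 passed the filter on low counts, which 10495 genes passed. NRF2, the protein of NFE2L2, is a transcription factor that KEAP1 binds in the cytoplasm and hands over for degradation. Oxidants and electrophiles modify KEAP1, and NRF2 then accumulates, enters the nucleus and switches on genes with an antioxidant response element (ARE) in their promoters, among them NQO1, HMOX1, GCLC, GCLM, TXNRD1, SRXN1 and SLC7A11. Ferroptosis is a form of cell death in which iron drives the peroxidation of membrane lipids. SLC7A11 imports the cystine from which glutathione is made, and GPX4 uses that glutathione to reduce lipid peroxides. Iron is recycled through lysosomes, which are the organelles that the compounds of this study act on.

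RNA-seq had been performed on MIA PaCa-2, an established human pancreatic carcinoma cell line. The 15 libraries form 5 groups of 3: vehicle (labelled Ctrl), Lys05, BAQ12, BAQ13 and BAQ12O, with each compound given at 5 µM for 24 h. Lys05 is a bisaminoquinoline (BAQ) that inhibits autophagy. BAQ12 and BAQ13 join its head to a hydrophobic tail and assemble into nanoparticles (NPs), and their tails differ in length by a single methylene unit. BAQ12O is a name from the labels, and nothing on its structure was found in the sources used here. The groups share the cell line and, as far as the labels tell, differ in the agent. The labels do not say whether the libraries of a group came from separate cultures, so the p-values measure the spread between these libraries, which may be technical.

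Reads on genes numbered from 1586566 to 2500551 per library (median 2230594). Values are normalised counts, which are reads scaled by each library's size factor, and 3 reads corresponded to 2.49 to 4.14 normalised counts, a floor that covers counting error only. Of the epithelial markers, KRT8, KRT18, KRT19 and CLDN4 had over 3 reads in every library, while EPCAM and KRT7 did not exceed 3 reads anywhere. The 4 acinar markers were at 0 in all libraries. The summed epithelial markers stood at 1793 to 1864 normalised counts with vehicle and between 1455 and 1676 in the treated libraries, and the part of this difference in the results below was not tested. The markers did not all move one way. With BAQ13, KRT8 was at 175 to 199 (vehicle 315 to 350) and KRT18 at 634 to 656 (vehicle 887 to 970). CLDN4 was at 99.7 to 123 (vehicle 68.9 to 83.5) and KRT19 at 522 to 550 (vehicle 486 to 509). A pair of libraries stood apart from the rest. Across the genes that no library lacked, the median correlation of log2 values with the other libraries was 0.946 for BAQ12 replicate 3 and 0.966 for BAQ13 replicate 1, while the other 13 libraries had pairwise correlations of 0.9675 to 0.981. BAQ12 replicate 3 had its highest correlation, 0.969, with BAQ13 replicate 1. It also held the highest or lowest value of all 15 libraries for 5 of the 10 genes (NFE2L2 and GPX4 highest, and NQO1, SLC7A11 and SRXN1 lowest), more than any other library. Results that rest on these 2 libraries are given with and without them.

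RefSeq (GRCh38.p14) promoter entries were matched for 8 of the 10 genes, in 13 entries, and were taken from 250 bases before the start of transcription to 20 after it. HMOX1 and SLC7A11 had no entry. The core of the ARE, TGACNNNGC, was searched on both strands and was found in 4 of the 13 entries, 1 each of KEAP1 and GCLM and 2 of TXNRD1. Of all 35116 promoters of this length, 12.0% hold it. The core of the amino acid response element to which ATF4 binds, TGATGNAA, was found in none of the 13 entries and in 3.37% of all promoters. Such a match is a run of letters and not a shown binding site, and a missing match says nothing on sites outside these windows. The sequences below were chosen because they hold the matches (KEAP1, GCLM and TXNRD1) or belong to a gene that rose (GCLC). They are written 5′ to 3′ on the strand of the gene, with matches to the ARE core in capitals. KEAP1 (chr19:10502752-10503021, minus strand, the second of its entries) and GCLM (chr1:93909411-93909680, minus strand) both contain the reverse complement of TGACTAAGC, at positions −31 to −23 and −34 to −26 from the start. TXNRD1 (chr12:104215529-104215798, plus strand) holds a match on each strand, at −99 to −91 and at −8 to 1. Its second entry (chr12:104286782-104287051, plus strand) holds the reverse complement of TGACAAAGC at −102 to −94. GCLC (chr6:53545082-53545351, minus strand) holds none here.
KEAP1: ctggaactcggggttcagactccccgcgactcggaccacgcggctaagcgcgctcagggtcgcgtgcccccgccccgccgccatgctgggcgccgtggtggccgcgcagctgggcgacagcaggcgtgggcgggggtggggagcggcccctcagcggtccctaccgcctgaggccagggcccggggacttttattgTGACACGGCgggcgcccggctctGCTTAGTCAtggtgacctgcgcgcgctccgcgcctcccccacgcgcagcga
GCLM: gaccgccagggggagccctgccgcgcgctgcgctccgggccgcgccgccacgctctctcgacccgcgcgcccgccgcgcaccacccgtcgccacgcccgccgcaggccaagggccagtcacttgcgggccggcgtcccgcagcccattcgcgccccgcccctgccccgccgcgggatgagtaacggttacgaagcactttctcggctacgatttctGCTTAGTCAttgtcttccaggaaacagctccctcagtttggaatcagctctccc
TXNRD1: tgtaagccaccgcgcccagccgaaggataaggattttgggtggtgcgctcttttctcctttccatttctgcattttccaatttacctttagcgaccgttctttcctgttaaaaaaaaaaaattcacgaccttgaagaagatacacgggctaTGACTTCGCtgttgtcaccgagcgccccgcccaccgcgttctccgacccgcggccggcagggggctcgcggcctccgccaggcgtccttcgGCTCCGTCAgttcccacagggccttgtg
TXNRD1, second entry: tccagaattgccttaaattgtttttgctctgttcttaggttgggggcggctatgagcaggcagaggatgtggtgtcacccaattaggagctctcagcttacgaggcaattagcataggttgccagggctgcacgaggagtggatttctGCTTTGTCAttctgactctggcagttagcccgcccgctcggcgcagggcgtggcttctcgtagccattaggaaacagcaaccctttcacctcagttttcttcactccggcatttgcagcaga
GCLC: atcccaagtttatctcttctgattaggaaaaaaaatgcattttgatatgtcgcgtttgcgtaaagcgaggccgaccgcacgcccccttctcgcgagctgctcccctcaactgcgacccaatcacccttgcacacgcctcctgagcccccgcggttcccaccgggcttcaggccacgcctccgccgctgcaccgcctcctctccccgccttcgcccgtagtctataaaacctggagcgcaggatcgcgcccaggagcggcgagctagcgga

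The treatments differed from vehicle in few of the 10 genes. With BAQ13, HMOX1 and GCLC rose, and none fell. These 2 of 10 stand beside 5.77% of all genes tested that changed in either direction with BAQ13, and 4 of the 10 had an unadjusted p-value under 0.05, beside 19.4% of all genes. Every group entered one limma fit of log2(normalised count + 1), a scale that understates the change of genes with few reads, and p-values were adjusted over the 10495 genes of a comparison, with 0.05 as the threshold. With Lys05 none of the 10 passed by limma, edgeR or DESeq2 (0.238% of all genes passed by limma), and 1 had an unadjusted p-value under 0.05, beside 4.98% of all genes. With BAQ12 none passed by limma or edgeR and 1, HMOX1, by DESeq2 (0.981% of all genes by limma), with 2 at an unadjusted p-value under 0.05, beside 11.8% of all genes. With BAQ12O none passed by any of these tools (1.48% of all genes by limma), with 3 at an unadjusted p-value under 0.05, beside 12.8% of all genes. DESeq2 gave no adjusted p-value for SLC7A11 and SRXN1 with BAQ12 and BAQ12O, since their mean counts fell under its own filter. In 5 of the 6 pairs of compounds SRXN1 had none either, in some together with SLC7A11 or GCLC. The median log2 difference over the 10 genes was 0.03 with Lys05, 0.05 with BAQ12, 0.02 with BAQ13 and −0.05 with BAQ12O, beside medians over all genes tested between −0.0042 and 0.0018. The same vehicle libraries serve all 4 comparisons. In a bulk measurement, a change in every cell and a change in the share of cells or in RNA per cell cannot be told apart.

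**Figure D1:**
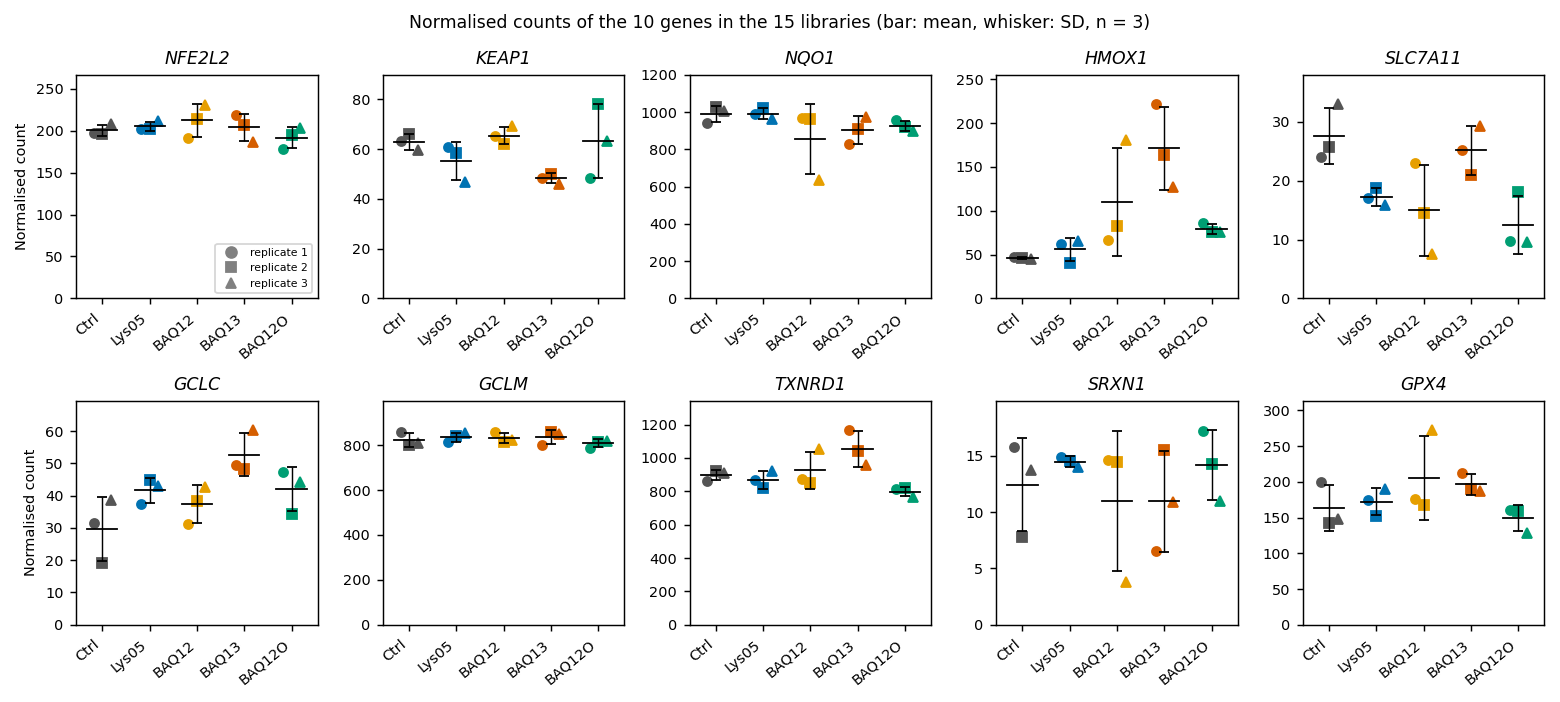
Normalised counts (y axis, from 0, a scale of its own for each gene) of the 10 genes in the 15 libraries by group (x axis). Symbols mark the replicate number, bars the mean and whiskers the SD of 3 libraries. HMOX1 is highest in the BAQ13 libraries, at 127 to 222, and GCLM stays between 788 and 860.1 in every library.

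**Figure D2:**
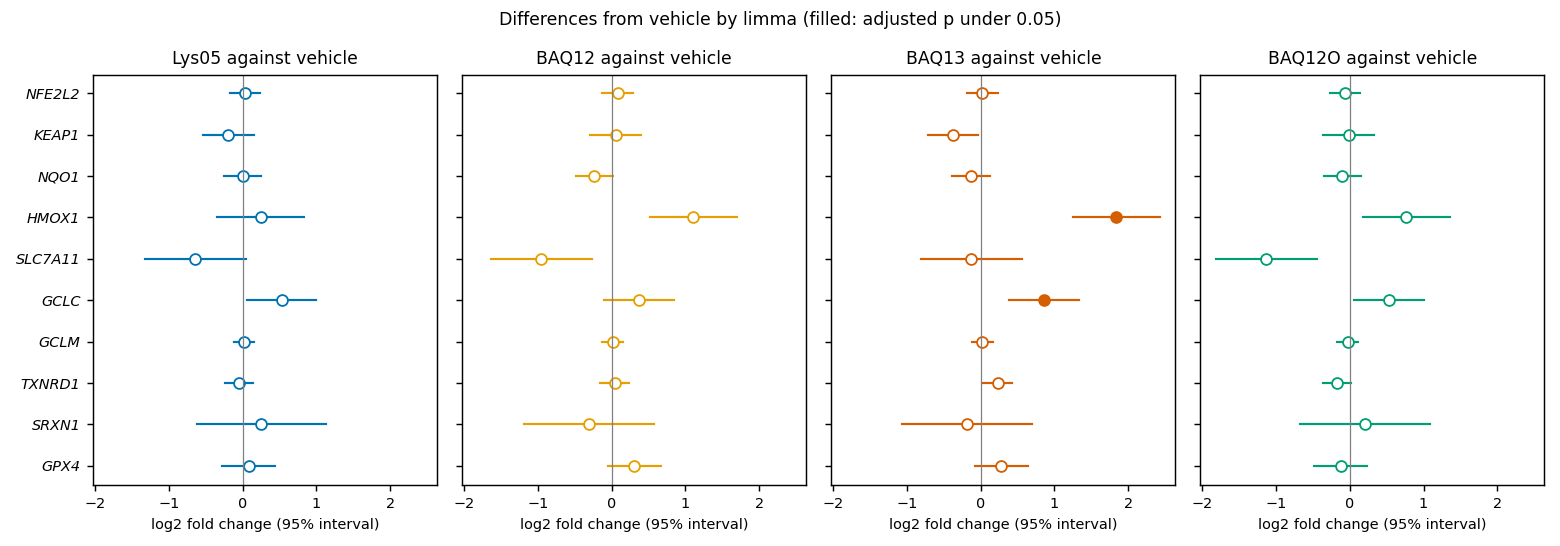
Log2 fold change against vehicle by limma (x axis) with its 95% interval for the 10 genes (y axis), in a panel per compound. Filled points have an adjusted p-value under 0.05, which are HMOX1 (1.84) and GCLC (0.86) with BAQ13.

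The NRF2 transcript was near its vehicle level with every compound, while that of KEAP1 was lower with BAQ13 without passing the test. NFE2L2 (ENSG00000116044, chr2:177227595-177392697, minus strand) encodes NRF2. Its vehicle libraries were at 197, 197 and 207 normalised counts, the Lys05 libraries at 202, 202 and 211, and the BAQ12 libraries at 192, 214 and 231. The BAQ13 libraries were at 218, 207 and 187 and the BAQ12O libraries at 178, 194 and 203. Every treated group overlapped vehicle. The largest of its 4 log2 differences was 0.08 with BAQ12 (95% interval −0.13 to 0.29), so that a difference from vehicle beyond 1.22-fold lay outside the interval there. Reads of NFE2L2 could be split with a sense-overlapping transcript, AC019080.1, that shares 1054 of its 5979 exon bases and had 1 to 10 reads per library.

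KEAP1 (ENSG00000079999, chr19:10486120-10503741, minus strand) encodes the protein that marks NRF2 for degradation. It was at 63.1, 65.9 and 59.7 normalised counts with vehicle and at 48.5, 50.1 and 46.1 with BAQ13, where every library was below every vehicle library. The log2 difference of −0.37 (95% interval −0.72 to −0.03) did not pass the test, with an adjusted p = 0.21 by limma. With Lys05 the libraries stood at 60.7, 58.3 and 46.7 and with BAQ12 at 65.1, 62.1 and 69.1. The BAQ12O libraries spanned 48.5 to 78.2, the widest range of the 5 groups for this gene, and overlapped all the others.

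HMOX1 showed the largest change of the 10 genes. It encodes haem oxygenase 1, which opens the haem ring and sets free iron, carbon monoxide and biliverdin, and lies at chr22:35380361-35394214 on the plus strand (ENSG00000100292). The vehicle libraries were at 47.3, 45.8 and 45.0 normalised counts and the BAQ13 libraries at 222, 164 and 127. No BAQ13 library came near the vehicle range, whose mean was 46.0 ± 1.19 (SD, n = 3) against 171 ± 47.8 with BAQ13. The ratio of means was 3.72, and the log2 fold change was 1.84 ± 0.28 (SE, 95% interval 1.25 to 2.43, limma adjusted p = 0.00042). Reads behind these values numbered 41 to 57 with vehicle and 152 to 238 with BAQ13.

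The BAQ12 libraries held 67.0, 82.5 and 181 normalised counts of HMOX1. All 3 were above vehicle, and the highest, replicate 3, lay among the BAQ13 libraries. The log2 difference was 1.10 ± 0.28 (SE), with an adjusted p = 0.082 by limma. It was 0.68 without BAQ12 replicate 3, with an adjusted p = 0.095 by limma. Without BAQ12 replicate 1 it was 1.39 (adjusted p = 0.015), and without both libraries that stood apart 0.68 (adjusted p = 0.013), both by limma.

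The BAQ12O libraries were close together at 86.2, 75.3 and 75.8, all above vehicle. Their log2 difference of 0.77 ± 0.28 (SE) had an adjusted p = 0.22 by limma, and an adjusted p = 0.0074 when BAQ12 replicate 3 was left out of the fit, which lowers the estimate of the spread that all groups share. The Lys05 libraries, at 61.8, 40.6 and 65.3, lay on both sides of the vehicle range, with a log2 difference of 0.25 (95% interval −0.34 to 0.84). For HMOX1 the group means therefore ran from BAQ13 through BAQ12, BAQ12O and Lys05 down to vehicle. The place of BAQ12 above BAQ12O rests on replicate 3, without which the BAQ12 mean was 74.7 against 79.1 with BAQ12O. No pair of neighbours in this order passed the test, and the same was true of the neighbours in the order of group means of the other 9 genes.

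Of the glutathione synthesis genes, the catalytic subunit rose with BAQ13 and the modifier subunit did not pass in any comparison. GCLC (ENSG00000001084, chr6:53497341-53616970, minus strand) is the catalytic subunit of glutamate-cysteine ligase, which carries out the rate-limiting step of glutathione synthesis. With vehicle it was at 31.5, 19.0 and 38.6 normalised counts, and with BAQ13 at 49.5, 48.3 and 60.3. All BAQ13 libraries were above all vehicle libraries, although vehicle itself ran from 19.0 to 38.6. The means were 29.7 ± 9.92 and 52.7 ± 6.64 (SD, n = 3 each), a ratio of 1.77, and the log2 fold change was 0.86 ± 0.22 (SE, limma adjusted p = 0.030). This call was lost when vehicle replicate 2, the lowest library, was left out (log2 0.57, adjusted p = 0.16 by limma). It was also lost without vehicle replicate 1 or any single BAQ13 library, with log2 values of 0.76 to 0.93. The Lys05 libraries were at 37.3, 44.8 and 42.9, the BAQ12 libraries at 31.2, 38.3 and 42.7, and the BAQ12O libraries at 47.4, 34.3 and 44.1. These 3 groups overlapped vehicle, and their log2 differences of 0.53, 0.37 and 0.53 did not pass by limma. Without vehicle replicate 2 these were 0.25, 0.086 and 0.25.

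GCLM (ENSG00000023909, chr1:93885205-93909456, minus strand) is the modifier subunit of the same enzyme and was the steadiest of the 10. Its libraries lay between 788 and 860.1 normalised counts in all groups. Vehicle averaged 824 ± 31.3 and BAQ13 837 ± 30.7 (SD, n = 3 each). The 95% interval of the log2 difference with BAQ13 ran from −0.12 to 0.16, which is 0.921-fold to 1.12-fold. The intervals with Lys05, BAQ12 and BAQ12O were as wide, and all included 0.

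SLC7A11 (ENSG00000151012, chr4:138164097-138242349, minus strand), the transport subunit of the cystine and glutamate exchanger, was lower in 3 of the 4 treated groups without passing the test. Its vehicle libraries were at 24.1, 25.7 and 33.0 normalised counts. Those of BAQ12O were at 9.65, 18.1 and 9.70 and those of Lys05 at 17.0, 18.7 and 15.9. The BAQ12 libraries were at 22.9, 14.5 and 7.54. All 9 of these libraries were below every vehicle library, while the BAQ13 libraries, at 25.2, 21.0 and 29.3, overlapped vehicle. The log2 differences were −1.13 ± 0.32 with BAQ12O (SE, adjusted p = 0.11), −0.95 with BAQ12 (adjusted p = 0.25) and −0.64 with Lys05 (adjusted p = 1.0), all by limma. Without BAQ12 replicate 3, the lowest of all libraries, the BAQ12 difference was −0.56 (limma adjusted p = 0.60). With BAQ12O the difference passed when BAQ12 replicate 3 was left out of the fit (limma adjusted p = 0.0099). Depth limits this gene, since only 6 to 36 reads lay behind each value. An antisense transcript, SLC7A11-AS1, shares 865 of its 9645 exon bases and had 14 to 24 reads per library, and reads of the pair cannot be told apart where counting did not use the strand.

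GPX4 (ENSG00000167468, chr19:1103926-1106791, plus strand), the selenoenzyme that reduces peroxidised phospholipids, did not pass in any comparison. It was at 200.1, 142 and 149 normalised counts with vehicle, where replicate 1 was the highest. The Lys05 libraries were at 175, 152 and 189, the BAQ13 libraries at 213, 189.6 and 187, and the BAQ12O libraries at 161, 159 and 128. BAQ12 replicate 3, at 273, stood above all other libraries, while the remaining BAQ12 libraries were at 176 and 167. Every treated group overlapped vehicle. The 95% interval of the log2 difference was −0.08 to 0.64 with BAQ13 and −0.48 to 0.24 with BAQ12O.

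No quinone or thiol reductase of the list passed against vehicle. NQO1 (ENSG00000181019, chr16:69706996-69726951, minus strand) reduces quinones and is a widely used readout of NRF2. It was at 939.8, 1026 and 1003 normalised counts with vehicle and at 827, 911 and 974 with BAQ13. The BAQ13 and vehicle libraries overlapped, and the log2 difference of −0.13 had a 95% interval of −0.39 to 0.12, whose upper end is 1.09-fold. The Lys05 libraries were at 990.3, 1019.5 and 961 and the BAQ12O libraries at 955, 920.0 and 899. With BAQ12 they were at 966, 964 and 638, and the last of these is the replicate 3 that stood apart. The log2 difference with BAQ12 was −0.23 (adjusted p = 0.45 by limma) and −0.04 without that library.

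TXNRD1 (ENSG00000198431, chr12:104215779-104350305, plus strand) is the cytosolic thioredoxin reductase, also a selenoenzyme. Its vehicle libraries were at 863, 920.1 and 909 normalised counts, the BAQ13 libraries at 1167, 1039.9 and 956, and the BAQ12O libraries at 812, 818 and 765. All BAQ13 libraries were above vehicle and all BAQ12O libraries below it. Neither difference from vehicle passed, with a log2 value of 0.23 for BAQ13 (adjusted p = 0.17) and −0.17 for BAQ12O (adjusted p = 0.46) by limma. Without BAQ12 replicate 3 in the fit the BAQ13 difference passed (limma adjusted p = 0.030), and without both libraries that stood apart it was 0.15 (limma adjusted p = 0.14). The Lys05 libraries, at 867, 818 and 922, and the BAQ12 libraries, at 872, 853 and 1054, overlapped vehicle.

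SRXN1 (ENSG00000271303, chr20:646615-653370, minus strand) encodes sulfiredoxin, which repairs overoxidised peroxiredoxins. It had few reads, with 15.8, 7.82 and 13.8 normalised counts with vehicle and 3 to 19 reads in a library. Lys05 gave 14.9, 14.6 and 14.0, BAQ12 14.7, 14.5 and 3.77, BAQ13 6.53, 15.5 and 10.9, and BAQ12O 17.2, 14.3 and 11.0. All groups overlapped vehicle. Changes up to 1.61-fold higher or 0.478-fold with BAQ13 lay within the 95% interval, so a smaller change was not detectable at this depth. Of its 2698 exon bases, 2292 also belong to the overlapping gene AL121758.1, which had 0 reads, and reads shared by both may not have been counted.

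Separation between libraries is set here beside the share of all genes tested with the same separation. With BAQ13, 4 of 10 had no overlap with vehicle (HMOX1, GCLC and TXNRD1 above, KEAP1 below), beside 28.9% of all genes. With BAQ12O it was 3 of 10 (HMOX1 above, SLC7A11 and TXNRD1 below), beside 25.8%. With BAQ12 it was 2 of 10 (HMOX1 above, SLC7A11 below), beside 15.4%, and with Lys05 1 of 10 (SLC7A11 below), beside 15.6%.

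Between compounds at the same dose and time, 2 differences among these genes passed, over 6 pairs of compounds. HMOX1 was higher with BAQ13 than with Lys05, by 3.06-fold in the means (171 ± 47.8 against 55.9 ± 13.4, SD, n = 3 each). All 3 BAQ13 libraries were above all Lys05 libraries, and the log2 difference was 1.59 ± 0.28 (SE, limma adjusted p = 0.0028). It was the 1 of the 10 genes that passed in this pair, beside 2.66% of all genes tested, and 2 had an unadjusted p-value under 0.05, beside 14.6%. In the same pair 4 of 10 were above every Lys05 library (HMOX1, GCLC, SLC7A11 and TXNRD1), beside 23.8% of all genes separated in either direction. TXNRD1 was lower with BAQ12O than with BAQ13, at 798 ± 28.9 against 1054.5 ± 106 (SD, n = 3 each). The log2 difference was −0.40 ± 0.09 (SE, limma adjusted p = 0.037), and it was again the 1 of 10 that passed, beside 1.39% of all genes tested, and 5 had an unadjusted p-value under 0.05, beside 11.2%. That call was lost without BAQ13 replicate 1, BAQ13 replicate 2 or any of the BAQ12O libraries, with log2 values from −0.41 to −0.32 and adjusted p-values from 0.11 to 0.18 by limma. It passed without BAQ12 replicate 3 in the fit (−0.40, limma adjusted p = 0.00066) and without both libraries that stood apart (−0.32, limma adjusted p = 0.0011).

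BAQ13 and BAQ12, whose tails differ by the single methylene unit, gave no difference past the threshold in any of the 10 genes by limma, edgeR or DESeq2, beside 0.562% of all genes by limma, and 4 had an unadjusted p-value under 0.05, beside 8.27%. For HMOX1 the log2 difference was 0.73, with a 95% interval of 0.14 to 1.32, so a BAQ13 level up to 2.50-fold that of BAQ12 lay within it. Without BAQ12 replicate 3 the difference was 1.16 (limma adjusted p = 0.00054), and TXNRD1 passed as well (0.29, limma adjusted p = 0.045). Without both libraries that stood apart the HMOX1 difference was 0.95 (limma adjusted p = 0.00068), and TXNRD1, at 0.21, did not pass (limma adjusted p = 0.14). GCLC was higher in all BAQ13 than in all BAQ12 libraries and KEAP1 lower, 2 of 10 without overlap beside 10.8% of all genes, and neither passed (limma adjusted p = 0.59 and 0.44).

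BAQ12O against BAQ13 gave the most separation, with 5 of 10 genes lower in every BAQ12O library (HMOX1, SLC7A11, GCLC, TXNRD1 and GPX4), beside 18.7% of all genes separated in either direction. HMOX1 differed by −1.07 (95% interval −1.66 to −0.48, limma adjusted p = 0.080) and SLC7A11 by −1.0 (95% interval −1.68 to −0.32, limma adjusted p = 0.19). Both passed when BAQ12 replicate 3 was left out of the fit, with adjusted p = 0.00018 and 0.028 by limma. None of the 10 passed by limma, edgeR or DESeq2 for BAQ12 against Lys05 (0.162% of all genes by limma), BAQ12O against Lys05 (0.248%) or BAQ12O against BAQ12 (0.229%). At an unadjusted p-value under 0.05 these pairs gave 1, 0 and 2 of the 10, beside 7.17%, 7.36% and 8.38% of all genes. In each of the 3 pairs 2 genes were without overlap: KEAP1 and HMOX1 higher with BAQ12 than with Lys05 (11% of all genes), HMOX1 higher and NQO1 lower with BAQ12O than with Lys05 (18.4%), and GPX4 and TXNRD1 lower with BAQ12O than with BAQ12 (11.1%). BAQ12O and BAQ12 differed in HMOX1 by −0.34 with a 95% interval of −0.93 to 0.25, which includes both no difference and a level 0.526-fold as high. Without BAQ12 replicate 3 the sign turned, to 0.09 (limma adjusted p = 0.91).

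**Figure D3:**
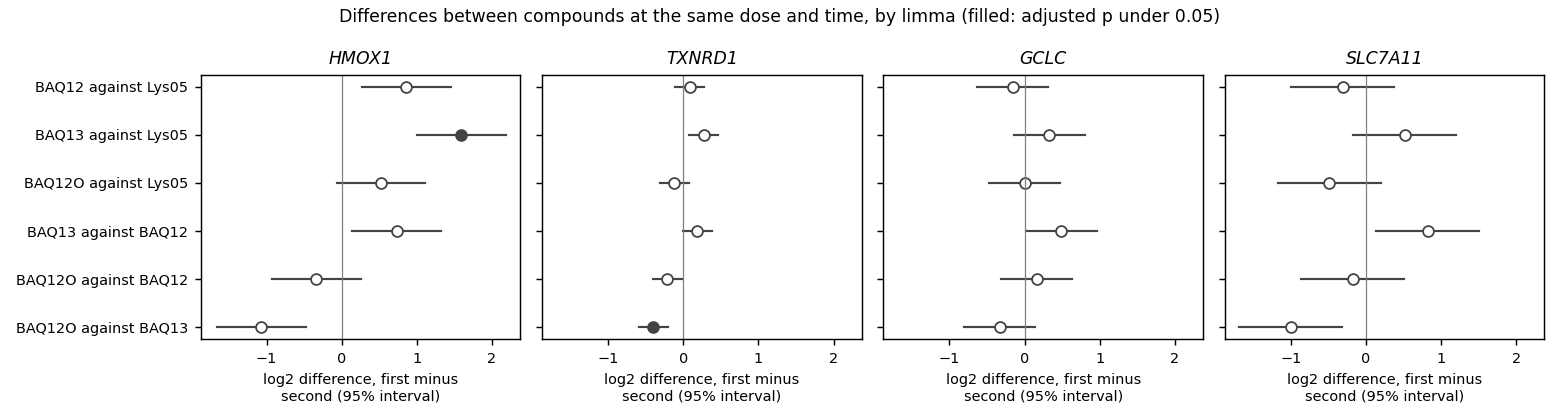
Log2 difference between compounds (x axis, group named first minus the group named second) with its 95% interval by limma, for HMOX1, TXNRD1, GCLC and SLC7A11 over the 6 pairs (y axis). Filled points have an adjusted p-value under 0.05, which are HMOX1 for BAQ13 against Lys05 (1.59) and TXNRD1 for BAQ12O against BAQ13 (−0.40).

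The 10 genes did not all vary together across the libraries. Over the 15 libraries, Pearson's r of log2 values was 0.72 between HMOX1 and TXNRD1, 0.57 between HMOX1 and GCLC, and −0.70 between HMOX1 and NQO1. Between the paired subunits GCLC and GCLM it was 0.14. The closest pair, NQO1 and SRXN1, had r = 0.77, which was 0.34 without BAQ12 replicate 3, while the value of HMOX1 and TXNRD1 was then 0.67. These coefficients describe libraries that share their groups, and a group difference enters every one of them. Among all genes tested, the profile most like that of HMOX1 was RDH11, a retinol dehydrogenase (r = 0.968, n = 15), followed by VAT1 and HADHA, the latter a subunit of the mitochondrial trifunctional protein of fatty acid oxidation (r = 0.963 each). RDH11 averaged 514 normalised counts with vehicle and 986 with BAQ13. For TXNRD1 the closest were DCAKD, POLR3D and ATF5 (r = 0.904, 0.899 and 0.887), and for GCLC they were RBM18, SYNJ2 and RNF41 (r = 0.882, 0.869 and 0.869).

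The wider pathway was followed through 199 further genes in 8 lists, of which 167 were tested and 20 stood in more than 1 list. By limma, 18 were higher and 5 lower with BAQ13 than with vehicle, beside 3.58% of all genes higher and 2.19% lower. With BAQ12O 3 were higher and 2 lower, beside 0.934% and 0.543% of all genes, and with BAQ12 2 and 1, beside 0.572% and 0.41%. With Lys05 1 was higher and 0 lower, beside 0.0762% and 0.162%, and edgeR and DESeq2 each called 1. At an unadjusted p-value under 0.05 there were 11 of 167 with Lys05, 26 with BAQ12, 54 with BAQ13 and 30 with BAQ12O. All genes tested gave 4.98%, 11.8%, 19.4% and 12.8%. Without BAQ12 replicate 3 in the fit, the BAQ13 counts were 33 higher and 18 lower, beside 13.7% of all genes called, and without both libraries that stood apart 32 and 11, beside 12.0%. The BAQ12O counts were then 8 and 8, beside 4.99% of all genes called, and 11 and 15, beside 9.28%. Those of BAQ12 were 5 and 1, beside 1.31%, and 9 and 2, beside 2.12%. Those of Lys05 were 1 and 0, beside 0.486%, and 2 and 0, beside 0.924%. The median log2 difference over the 167 genes was 0.06 with BAQ13.

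Of 16 regulators of NRF2 tested, SQSTM1 was the 1 that changed by limma with BAQ12, BAQ13 or BAQ12O, beside 0.981%, 5.77% and 1.48% of all genes. With Lys05 none did. For BAQ13, edgeR and DESeq2 each called 2, and 6 had an unadjusted p-value under 0.05, beside 19.4% of all genes. Without BAQ12 replicate 3 in the fit, MAFG and TRIM16 passed as well with BAQ13 (13.7% of all genes). Without both libraries that stood apart, MAFF and MAFG did with BAQ13 (12.0%) and MAFG with BAQ12O (9.28%). SQSTM1 encodes p62, the autophagy receptor that binds KEAP1. It averaged 301 ± 16.5 normalised counts with vehicle, 697 ± 32.3 with BAQ13, 502 ± 36.4 with BAQ12O and 469 ± 95.5 with BAQ12 (SD, n = 3 each). All libraries of these 3 treatments were above vehicle, and the log2 fold changes were 1.21, 0.73 and 0.62 (limma adjusted p = 1.3e-06, 0.0016 and 0.0066). With Lys05 it was at 342 ± 8.17 and did not pass (log2 0.19, limma adjusted p = 1.0).

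Among 32 other targets of NRF2, 6 were higher with BAQ13 and none lower, beside 3.58% of all genes higher and 2.19% lower. The remaining 26 did not pass by limma with BAQ13. With the other compounds none passed by limma, edgeR or DESeq2. At an unadjusted p-value under 0.05 there were 2 of 32 with Lys05, 7 with BAQ12, 12 with BAQ13 and 6 with BAQ12O. The shares of all genes were 4.98%, 11.8%, 19.4% and 12.8%. The median log2 difference of this list with BAQ13 was 0.30, beside −0.0042 over all genes tested. Those that rose include enzymes that yield NADPH: PGD of the pentose phosphate pathway, from 44.0 ± 5.29 to 101 ± 9.13 normalised counts, the malic enzyme ME1, from 72.0 ± 5.33 to 137 ± 5.79, and IDH1, from 77.3 ± 2.70 to 149 ± 22.2 (SD, n = 3 each). Their log2 fold changes were 1.19, 0.92 and 0.93 (limma adjusted p = 3.7e-05, 0.00027 and 0.00030). The others were TKT (0.41), BLVRB (0.63) and FTL (0.60). FTL, the ferritin light chain that stores iron, was at 4800 to 4929 with vehicle and at 6512 to 8704 with BAQ13, and BAQ12 replicate 3 held its highest value, 8933. BLVRB, a biliverdin reductase that acts downstream of haem oxygenase, went from 155 ± 2.66 to 241 ± 32.1.

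Changes among the genes of glutathione and thiol metabolism with BAQ13 are set beside the 5.77% of all genes called in either direction. Of 28 genes of glutathione synthesis and use, GGT1, a γ-glutamyl transferase, was higher with BAQ13 (log2 0.72, limma adjusted p = 0.0415) and GPX8, an endoplasmic reticulum peroxidase, lower (−0.73, limma adjusted p = 0.021). DESeq2 called none of this list with BAQ13 and edgeR 3. Without BAQ12 replicate 3 in the fit, MGST1 and GGT7 were also higher with BAQ13 and CHAC2 and GLO1 lower (13.7% of all genes). Without both libraries that stood apart, MGST1 and GGT7 were higher and GLO1 lower (12%), while GGT1 and GPX8 did not pass. GPX8 and GLO1 were lower with BAQ12O in both fits (4.99% and 9.28%). In the second, CHAC1 was lower with BAQ12 (2.12%) and with BAQ12O. Of 24 genes of the thioredoxin system, the peroxiredoxins and the dismutases, limma called 1, PRDX6, from 1285 ± 48.9 to 1041 ± 12.2 with BAQ13 (log2 −0.30, limma adjusted p = 0.013). For BAQ13, edgeR called 2 of this list and DESeq2 1. Without BAQ12 replicate 3 in the fit, TXN, PRDX5 and SESN2 were higher with BAQ13 and TXNDC17, PRDX3, PRDX4 and PRDX6 lower (13.7% of all genes). Without both libraries that stood apart, PRDX5 and SESN2 were higher and TXNDC17, PRDX3 and PRDX6 lower (12%). With BAQ12O, PRDX3, PRDX4, PRDX6 and CAT were then lower (9.28%). None of 20 genes for selenoproteins or selenocysteine insertion passed against vehicle with any compound by limma, edgeR or DESeq2 on all libraries. At an unadjusted p-value under 0.05 there were 0 of 20 with Lys05, 1 with BAQ12, 4 with BAQ13 and 1 with BAQ12O, beside 4.98%, 11.8%, 19.4% and 12.8% of all genes. Without BAQ12 replicate 3 in the fit, SELENOF, SELENOT and SELENOW were lower with BAQ13 by limma (13.7% of all genes called). Without both libraries that stood apart, SELENOF and SELENOW were lower with BAQ13 (12%) and SELENOT with BAQ12O (9.28%).

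Of 24 genes that promote or limit ferroptosis, 5 were higher and 1 lower with BAQ13, beside 3.58% and 2.19% of all genes. The remaining 18 did not pass by limma with all libraries in the fit, and the list median was −0.02. They do not all act in one direction. SCD makes monounsaturated fatty acids, which limit peroxidation, and rose with every compound, from 1629 ± 14.6 with vehicle to 2106 ± 83.4 with Lys05, 2462 ± 175 with BAQ12, 2422 ± 149.9 with BAQ12O and 3376 ± 40.7 with BAQ13 (SD, n = 3 each). Its log2 fold changes were 0.37, 0.59, 0.57 and 1.05 (limma adjusted p = 0.025, 7.0e-05, 0.00024 and 1.8e-08). ACSL4, which activates polyunsaturated fatty acids before they enter phospholipids and so promotes ferroptosis, went from 148 ± 11.3 to 263 ± 5.68 with BAQ13 (log2 0.82, limma adjusted p = 0.0025). DHCR7, an enzyme of cholesterol synthesis, went from 47.0 ± 6.13 to 154 ± 30.9 with BAQ13 (log2 1.68, limma adjusted p = 6.8e-05). SAT1, a polyamine acetyltransferase, was higher with BAQ13 (0.83) and with BAQ12O (0.53, limma adjusted p = 0.023). CYB5R1 was higher (0.69) and FANCD2 lower (−0.68) with BAQ13. LPCAT3 was at log2 −0.99 with BAQ13 and did not pass (limma adjusted p = 0.061). Without BAQ12 replicate 3 in the fit, LPCAT3 and NFS1 were lower and HSPB1 higher with BAQ13 (13.7% of all genes). Without both libraries that stood apart, LPCAT3 was lower and HSPB1 higher with BAQ13 (12%). In that fit ACSL4, SAT1 and DHCR7 were higher with BAQ12 (2.12%), DHCR7 with BAQ12O (9.28%) and SAT1 with Lys05 (0.924%). CHAC1 was then lower with BAQ12 and BAQ12O.

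Of 23 genes of iron and haem handling, FTL and BLVRB, already counted among the NRF2 targets, were the 2 that rose with BAQ13. ALAS1, the entry enzyme of haem synthesis, fell from 51.5 ± 2.84 to 28.6 ± 1.91 normalised counts (log2 −0.83, limma adjusted p = 0.010). Of all genes tested, 3.58% were higher and 2.19% lower with BAQ13, and the list median was −0.03. With BAQ12O 1 gene of the list passed by limma, beside 1.48% of all genes. With BAQ12O TFRC, the transferrin receptor through which iron enters the cell, was lower, at 121 ± 18.8 against 189 ± 16.2 with vehicle (log2 −0.65, limma adjusted p = 0.0090), and with BAQ13 it was at 147 ± 11.7 (log2 −0.36, limma adjusted p = 0.10). TFRC passed as lower with BAQ13 without BAQ12 replicate 3 in the fit (13.7% of all genes called) and without both libraries that stood apart (12%). FTH1 and FLVCR1 also rose with BAQ13 in both fits, and NCOA4 in the second. With BAQ12O, FTL was higher and FECH lower in both (4.99% and 9.28%).

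Of 20 genes of the integrated stress response, the ATF4 programme that also drives SLC7A11, 5 were higher and 1 lower with BAQ13. Of all genes tested, 3.58% were higher and 2.19% lower. The remaining 14 of the list did not pass by limma with all libraries in the fit, and the list median was 0.06. DDIT3, the proapoptotic factor CHOP, went from 35.7 ± 1.68 to 76.7 ± 24.2 (log2 1.04, limma adjusted p = 0.0053). WARS (0.74), CEBPB (0.68), TRIB3 (0.88) and GADD45A (0.41) rose as well. SLC7A5, an amino acid exchanger, was lower with BAQ13 (−0.77, limma adjusted p = 0.0011), with BAQ12O (−0.80, limma adjusted p = 0.0026) and with BAQ12 (−0.67, limma adjusted p = 0.013), and all 9 of these libraries were below vehicle. With BAQ12 and BAQ12O it alone of the list passed, beside 0.981% and 1.48% of all genes. Without BAQ12 replicate 3 in the fit, ATF4, DDIT4, PPP1R15A and SESN2 were higher with BAQ13 and PSAT1 and MTHFD2 lower (13.7% of all genes). Without both libraries that stood apart the higher ones passed (12%) and the lower ones did not. With BAQ12O, DDIT3, CEBPB and PPP1R15A were higher and PSAT1 and MTHFD2 lower in both fits (4.99% and 9.28%). ASNS and CHAC1 fell in the second.

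**Figure D4:**
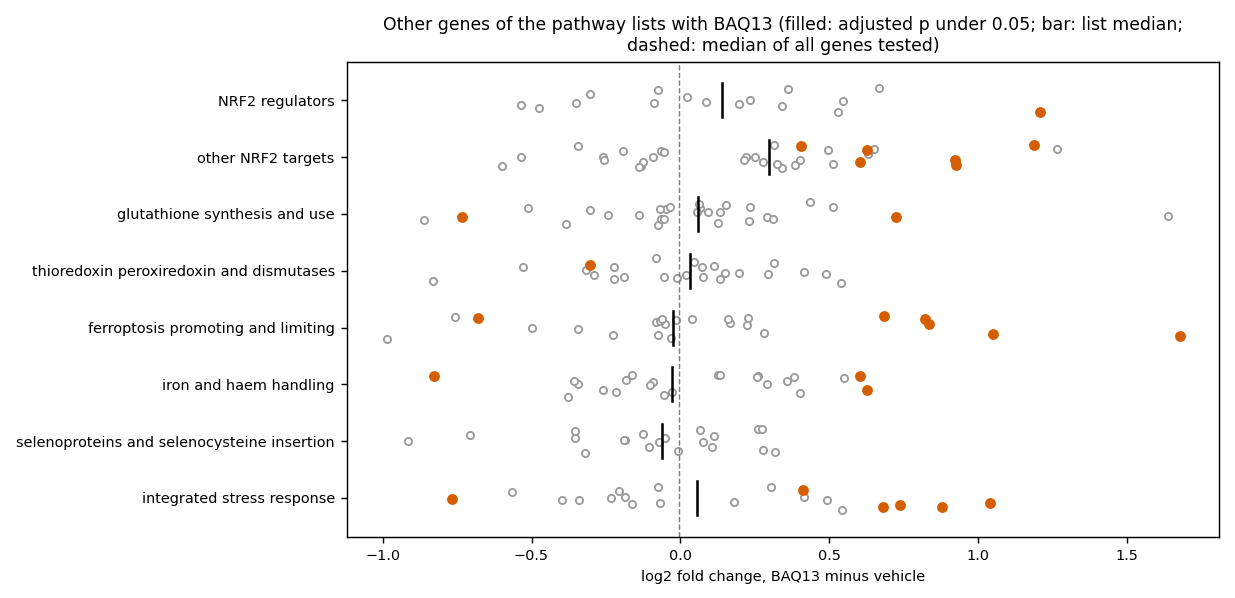
Log2 fold change of BAQ13 against vehicle (x axis) for the genes tested in the 8 further lists (y axis, a gene in more than 1 list is drawn in each). Filled points have an adjusted p-value under 0.05 by limma with all libraries in the fit. Bars mark list medians and the dashed line the median of all genes tested. The 6 filled points among other NRF2 targets are all to the right, and the list of selenoproteins has none.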

How the data were processed

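RNA-seq of MIA PaCa-2 cells was analysed from gene tables of 15 libraries, 5 groups of 3 named by the labels. Per the labels the libraries came from a QuantSeq 3′ kit, while the study's methods describe a stranded paired-end kit, so which strand or part of a transcript was counted is uncertain. The submitters' processing notes name STAR, HTSeq, DESeq2 and GRCh38, with versions not given in the sources used here. The deposited signal values were made by the authors, who divided gene counts by a size factor per library and pooled no replicates. Dividing by the smallest value above 0 gave whole reads for 100% of values (tolerance 0.01).

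Genes were filtered with filterByExpr (minimum count 10, minimum total 15) and fitted with limma 3.58.1 (variance trend, R 4.3.3) on log2(value + 1) over all libraries without covariates, with Benjamini-Hochberg adjustment within each of 10 comparisons (4 with vehicle, 6 between compounds). The code was tested on simulated data. Two-sided p-values are given throughout. Alternatives were edgeR 4.0.16 and DESeq2 1.42.0 on the recovered reads, other pseudocounts, filters, scalings and sample sets, and each library left out. The 10 genes and the pathway lists were chosen with earlier results of these data known. All 10 genes are named. Of each pathway list, up to 4 genes past the threshold against vehicle without overlap are given in full, by the lowest adjusted p-value, and other called genes by name and fold change. The genes most like a called member were the 3 with the highest Pearson's r. Leaving out both libraries that stood apart was chosen after seeing the data. Figures were drawn with matplotlib 3.10.9.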

Additional observations from a re-analysis of the deposited data

Results flagged for a closer look

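The compounds differed under the same comparison with vehicle in 2 results. The HMOX1 fold change was larger with BAQ13 than with Lys05 by 1.59 on the log2 scale (limma adjusted p = 0.0028, higher in 3 of 3 BAQ13 libraries than in any Lys05 library). The TXNRD1 difference of BAQ12O from BAQ13 was −0.40 on the log2 scale (limma adjusted p = 0.037, lower in 3 of 3 BAQ12O libraries than in any BAQ13 library).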

How the results depend on the processing

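HMOX1 with BAQ13 kept its direction and its call against vehicle (log2 1.63 to 2.03) and against Lys05 (1.38 to 1.78) under all 12 other settings and with each of 8 library leave-outs. GCLC with BAQ13 against vehicle kept its call under 11 of 12 settings and 3 of 8 leave-outs (log2 0.57 to 1.07). It was lost with adjustment over all 10 comparisons (limma adjusted p = 0.0879). TXNRD1 for BAQ12O against BAQ13 kept its call under 8 of 12 settings and 3 of 8 leave-outs (log2 −0.47 to −0.32), and lost it without a filter (limma adjusted p = 0.075), with upper quartile factors (0.055) and without the variance trend (0.15). Where a call was lost or gained, the cause was not tested, except that leaving BAQ12 replicate 3 out lowers the shared spread.

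Of the 10 genes, the number past the threshold changed as follows. For BAQ12 against vehicle it went from 0 to 1 with DESeq2 and 1 without both libraries that stood apart. For BAQ13 against vehicle it went from 2 to 1 when adjusted over all 10 comparisons. For BAQ12O against vehicle it went from 0 to 2 with only the 6 libraries compared, and to 2 without BAQ12 replicate 3 or without both libraries. For BAQ13 against Lys05 it went from 1 to 2 without BAQ12 replicate 3, for BAQ12O against Lys05 from 0 to 1 without both, and for BAQ13 against BAQ12 from 0 to 1 without both. For BAQ12O against BAQ13 it went from 1 to 0 without a filter, with upper quartile factors, with no variance trend and with the replicate block, to 2 with DESeq2 and with only the 6 libraries, and to 3 without BAQ12 replicate 3 or without both. With each library left out the range was 0 to 1 for BAQ12 against vehicle, 1 to 3 for BAQ13 against vehicle, 0 to 2 for BAQ12O against vehicle, 0 to 2 for BAQ13 against BAQ12 and 0 to 3 for BAQ12O against BAQ13.

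Differences from vehicle that changed sign had not passed. Of the 60 differences between compounds, 12 had the other sign without BAQ12 replicate 3, none of them past the threshold, among them HMOX1 for BAQ12O against BAQ12 (−0.34 to 0.09), SLC7A11 for BAQ12 against Lys05 (−0.31 to 0.08) and NQO1 for BAQ13 against BAQ12 (0.10 to −0.10). KEAP1 with BAQ12O went from −0.01 to 0.017 with edgeR and 0.024 with DESeq2. NQO1 with Lys05 went from 0.0011 to −0.0033 with upper quartile factors and −0.000717 with DESeq2. With upper quartile factors GCLM was at −0.0044 with BAQ12 and −0.00088 with BAQ13. Without both libraries that stood apart NFE2L2 with BAQ13 was at −0.026, TXNRD1 with BAQ12 at −0.057, SRXN1 with BAQ12 at 0.26 and SRXN1 with BAQ13 at 0.11. With libraries left out singly, the log2 differences ran from −0.026 to 0.086 for NFE2L2 with BAQ13, from −0.18 to 0.16 for KEAP1 with BAQ12O, from −0.036 to 0.028 for NQO1 with Lys05, and from −0.24 to 0.0040 for SLC7A11 with BAQ13. For GCLM they ran from −0.00039 to 0.050 with Lys05, from −0.011 to 0.043 with BAQ12 and from −0.048 to 0.0025 with BAQ12O, and for TXNRD1 with BAQ12 from −0.057 to 0.096. For SRXN1 they ran from −0.023 to 0.44 with Lys05, from −0.60 to 0.26 with BAQ12, from −0.47 to 0.11 with BAQ13 and from −0.072 to 0.39 with BAQ12O. For GPX4 they ran from −0.0096 to 0.24 with Lys05 and from −0.21 to 0.033 with BAQ12O.

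Over all genes tested, the limma counts against vehicle of 25 (Lys05), 103 (BAQ12), 606 (BAQ13) and 155 (BAQ12O) ranged over 21 to 115, 31 to 112, 356 to 947 and 118 to 871 under the other settings. Replicate numbers are shared across groups, but same-numbered libraries did not deviate together (correlations from −0.49 to 0.20), and 4 of 15 correlated best with their own number. With the replicate block the TXNRD1 difference of BAQ12O from BAQ13 had an adjusted p = 0.0794 by limma, and no other call among the 10 genes changed. Depth limits SLC7A11 and SRXN1 most, with at most 36 and 19 reads in a library.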
